A study of Mus musculus with 12 samples.

Results

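Autophagy delivers cytoplasm and organelles to the lysosome, and mitophagy is its form that removes mitochondria. The 10 genes described here act at successive steps of this pathway: Ulk1, Becn1, Atg14, Gabarapl1, Map1lc3a, Map1lc3b, Sqstm1, Bnip3, Bnip3l and Tfeb. They were taken from the exon count table by symbol, as a set proposed with earlier results of these data known. All 10 were among its 22618 genes, and all 10 were among the 17142 genes that passed the filter on low counts. The study profiled liver RNA of male Cry1/2 DKO mice, which lack the cryptochromes, repressors of the circadian clock. The mice were on the C57BL/6j strain, were 12 to 16 weeks old, were conventionally raised with respect to gut microbiome and were fed at night. Livers were taken every 4 h at zeitgeber time ZT02, ZT06, ZT10, ZT14, ZT18 and ZT22, with 2 libraries per time point. ZT12 is by convention the start of darkness, so ZT14, ZT18 and ZT22 (6 libraries) are called night, and ZT02, ZT06 and ZT10 (6 libraries) day. Every library carries the same double deletion and wild-type livers were not analysed here, so all comparisons set times of day against each other in the mutant alone. Whether libraries came from separate or pooled animals is not stated in the labels. P-values here therefore measure only how these libraries spread, which may be technical.

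Autophagy begins when the ULK1 kinase complex, held in check by mTORC1 in fed cells, is released during nutrient shortage and activates the class III PI3-kinase complex that contains Beclin 1 and ATG14. Proteins of the ATG8 family (the LC3 and GABARAP proteins) are then attached to the growing membrane, where they bind cargo receptors such as p62 and the mitophagy receptors BNIP3 and BNIP3L. In mouse liver, autophagy is known to vary over the day with feeding and fasting, and C/EBPβ has been tied to the daily expression of several of its genes. Much of the control of the pathway lies in phosphorylation and protein turnover, which RNA levels do not show.

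Library totals were 34715506 to 46074052 exon counts. Levels are given as CPM, the count scaled to library size and composition. Across 9876 genes of at least 5 CPM, centred and scaled per gene, ZT02 replicate 1 was more like ZT06 replicate 1 (r = 0.48) than like ZT02 replicate 2 (r = 0.15). Likewise ZT02 replicate 2 was more like ZT06 replicate 2 (r = 0.49) than ZT06 replicates 1 and 2 were like each other (r = 0.07). Results are therefore also given without these crossed pairs. Hepatocyte markers, 8 of 8 in the table, summed to 79024 to 90220 CPM at night and 85606 to 114218 CPM by day. Most of this sum was Alb, at a mean of 66637 CPM. With each marker centred on its own mean, the average log2 level overlapped, at -0.08 to 0.09 at night and -0.19 to 0.18 by day. Summed markers of Kupffer, endothelial, stellate and bile duct cells overlapped between night and day. Pancreatic acinar markers (7 of 8 in the table, 0 to 5 of them at 0 per library) reached 33.6 CPM in ZT14 replicate 2 and 6.35 to 18.2 CPM in the other libraries. Lymphocyte markers summed to 1.07 and 1.65 CPM at ZT14 and to 2.98 to 4.99 CPM elsewhere. The part of these cells in the results was not tested. In whole liver, fewer cells of a type and less RNA per cell cannot be told apart.

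Of the 10 genes, 5 were lower at night and none was higher. They were Gabarapl1, Bnip3, Ulk1, Bnip3l and Atg14 (edgeR quasi-likelihood test, adjusted p under 0.05). Among all genes tested 9.70% differed between night and day, with 4.89% (839 genes) lower and 4.80% (823 genes) higher at night. Scaling by library totals alone gave 624 lower and 1077 higher over all genes, and 4 lower and 0 higher among the 10. The median log2 difference, night minus day, was -0.24 over the 10 genes and 0.01 over all tested genes. A 24 h rhythm was called in 3 of the 10, Gabarapl1, Bnip3 and Bnip3l, against 12.0% of all genes. The test of any time difference, which assumes no shape, called Gabarapl1 and Bnip3, against 4.82% of all genes. These shares include genes of low counts. When only genes of at least 5 CPM were tested, 5 of the 10 were lower at night, against 8.15% of all genes tested there. The 24 h test then called 4 of the 10, against 20.4%. In Gabarapl1, Map1lc3b and Ulk1 every night library lay below every day library, as in 2.10% of all genes; no member lay above in every night library, as 1.60% of all genes did. No member was called higher at night at an unadjusted p under 0.05 either, nor by DESeq2 or limma-voom (0 in each).

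These counts changed when single libraries were left out, while the effects kept their direction. Over the fits without 1 library the log2 difference, night minus day, ran from -0.44 to -0.33 in Ulk1. It ran from -0.43 to -0.30 in Bnip3l and from -0.31 to -0.23 in Atg14. The cause of the lost calls was not tested. Only 3 genes were called between night and day when ZT02 replicate 2, ZT14 replicate 1 or either ZT22 library was left out. Only 2 were called when either ZT18 library was left out, or when ZT02 replicate 2 went together with ZT06 replicate 1. Calls over all genes fell as well: 1.61% and 1.90% were lower at night without ZT18 replicates 1 and 2, and 2.10% without that pair. The count for any time difference was 1 without ZT14 replicate 1 or either ZT22 library. Without either ZT18 library edgeR called 0, with 4 members at an unadjusted p under 0.05; over all genes 174 and 184 were called there, against 826 with all libraries. On all 12 libraries DESeq2 called 4 and limma-voom 2. Bnip3l lost its 24 h call without ZT10 replicate 2, either ZT18 library or the pair of ZT02 replicate 2 and ZT06 replicate 1. The 24 h calls over all genes were fewer in those fits too.

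**Figure D1:**
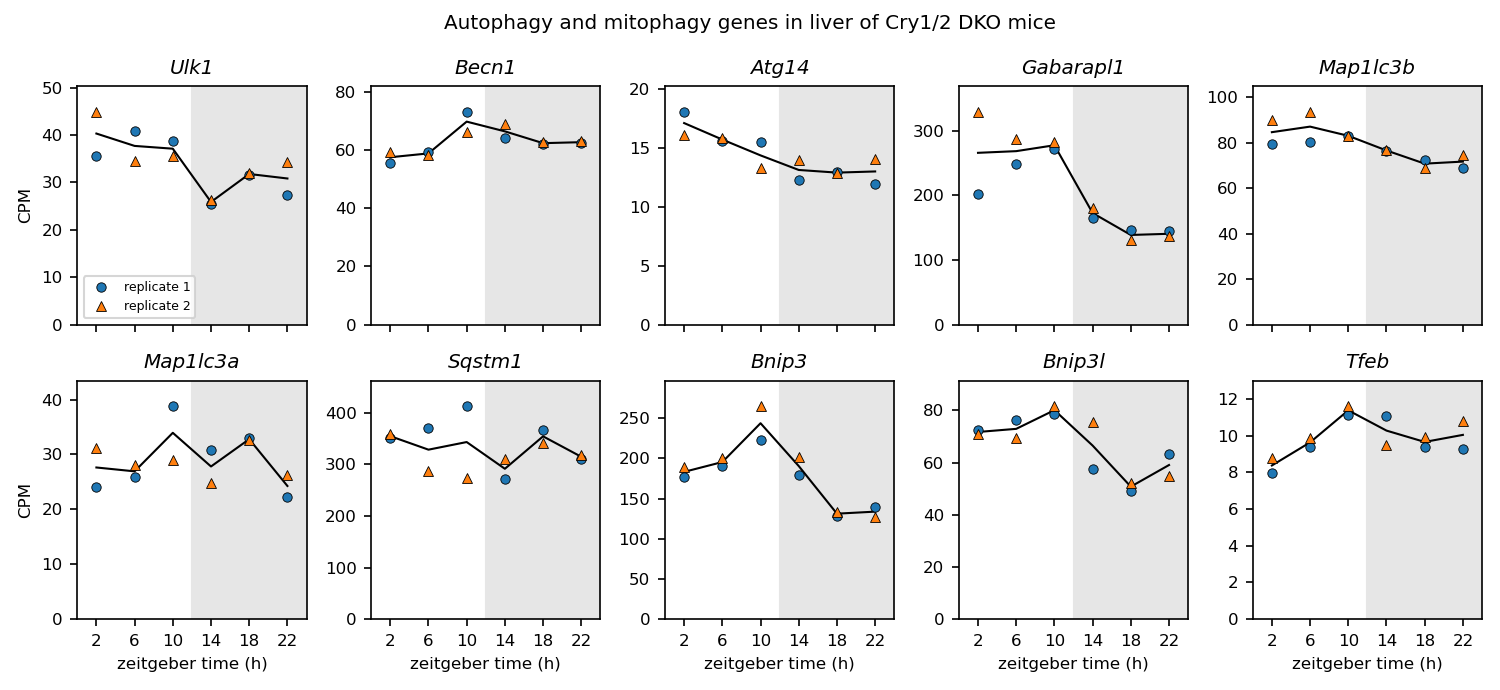
CPM of each gene (vertical axis, from 0) against zeitgeber time in hours, with both libraries of each time point as points, their mean as a line and the dark phase shaded. Gabarapl1 stood at 130 to 180 CPM in the night libraries and 202 to 330 CPM in the day libraries, and Bnip3 was highest at ZT10.

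The windows around the annotated starts of the genes that fell at night are shown to let the members be set beside each other at sequence level. RefSeq promoter windows on GRCm38.p6 (mm10), each running from 250 bases before the start to 50 after, matched 7 of the 10 genes, all but Map1lc3a, Bnip3l and Becn1. Sequences read 5′ to 3′ on the gene's strand, and capitals mark matches to the motifs searched. The windows are chr5:110810032-110810331 on the minus strand for Ulk1, chr6:129532942-129533241 on the plus strand for Gabarapl1, chr7:138909457-138909756 on the minus strand for Bnip3 and chr14:47568385-47568684 on the minus strand for Atg14.
Ulk1: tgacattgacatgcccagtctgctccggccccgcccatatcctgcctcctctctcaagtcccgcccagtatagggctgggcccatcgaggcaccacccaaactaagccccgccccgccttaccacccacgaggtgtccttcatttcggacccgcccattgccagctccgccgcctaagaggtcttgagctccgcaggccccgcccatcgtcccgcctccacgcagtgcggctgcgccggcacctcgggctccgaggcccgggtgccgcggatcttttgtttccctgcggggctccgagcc
Gabarapl1: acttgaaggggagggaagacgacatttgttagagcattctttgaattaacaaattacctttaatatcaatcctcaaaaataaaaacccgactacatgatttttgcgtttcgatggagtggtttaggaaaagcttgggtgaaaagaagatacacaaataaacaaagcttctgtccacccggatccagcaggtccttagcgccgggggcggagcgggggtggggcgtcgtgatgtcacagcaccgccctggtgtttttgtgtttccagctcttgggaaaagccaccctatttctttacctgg
Bnip3: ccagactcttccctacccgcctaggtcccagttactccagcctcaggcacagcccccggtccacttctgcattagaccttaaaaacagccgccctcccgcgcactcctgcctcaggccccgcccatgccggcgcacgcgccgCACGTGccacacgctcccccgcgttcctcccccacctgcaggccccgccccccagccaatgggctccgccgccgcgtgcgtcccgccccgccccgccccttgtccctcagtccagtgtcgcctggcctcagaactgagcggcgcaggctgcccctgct
Atg14: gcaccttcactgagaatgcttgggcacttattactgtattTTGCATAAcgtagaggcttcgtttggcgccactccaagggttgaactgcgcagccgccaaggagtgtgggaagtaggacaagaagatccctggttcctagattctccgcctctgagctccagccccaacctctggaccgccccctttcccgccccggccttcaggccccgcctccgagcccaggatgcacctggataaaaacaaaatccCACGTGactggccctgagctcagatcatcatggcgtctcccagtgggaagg
Both strands were searched for 7 motifs, and the share of all 32851 windows that hold each is given beside it. They were the E-box CACGTG, bound by clock and MiT/TFE factors (7.15%), and the CLEAR element of lysosomal genes, which contains an E-box (0.326%). The others were a FOXO motif GTAAACA (3.65%), a C/EBP motif TTGCNNAA (10.8%), a D-box TTATGNAA (3.38%), a ROR element TAGGTCA (2.61%) and GACGTG, a form of the hypoxia response element (6.38%). Bnip3 held an E-box that begins at position -108, counted from the annotated start. Atg14 held an E-box that begins at position -1 and so spans the start, and TTGCATAA at -210, the same 8 bases matching both the C/EBP motif and, on the other strand, the D-box. Ulk1 and Gabarapl1 held none of the 7. Of the members not called lower at night, whose windows are not shown, Map1lc3b and Sqstm1 also held none. Tfeb held a C/EBP match, TTGCAGAA, at position 20 after an annotated start. A match is a description of letters and not a bound site.

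Initiation was represented by Ulk1, the kinase that starts autophagosome formation (ENSMUSG00000029512, chromosome 5, 110784488 to 110810097, mm10). Ulk1 ran from 25.5 through a median of 29.4 to 34.3 CPM at night, and from 34.5 through 37.2 to 45.0 CPM by day. The lowest libraries were both of ZT14, at 25.5 and 26.2 CPM, and night and day did not overlap. It averaged 29.5 ± 3.61 CPM at night and 38.4 ± 3.99 CPM by day (SD, n = 6 each), which on the log2 scale is -0.38 ± 0.08 (SE; edgeR, adjusted p = 0.0205). Ulk1 was no longer called when any of ZT02 replicate 2, ZT14 replicate 1, ZT22 replicate 1 and the ZT18 libraries was left out (adjusted p from 0.0569 to 0.0708) and without ZT02 replicate 2 and ZT06 replicate 1 together (0.0969). Its 24 h fit had a peak over trough of 1.42-fold and did not pass (edgeR adjusted p = 0.0666), though it did with DESeq2 (0.0279).

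The class III PI3-kinase complex gave a split picture. Atg14, which directs the complex to the site of autophagosome formation (ENSMUSG00000037526, chromosome 14, 47540893 to 47570649), ran from 11.9 through a median of 12.9 to 14.1 CPM at night, and from 13.3 through 15.7 to 18.1 CPM by day. Its highest libraries were those of ZT02, at 18.1 and 16.1 CPM, and 1 day library, ZT10 replicate 2, lay within the night range. The log2 difference was -0.27 ± 0.08 (SE), with an edgeR adjusted p of 0.0476. This call sat at the threshold: it did not hold in 10 of the 12 omissions of 1 library, all but those without ZT10 replicate 2 or ZT14 replicate 2. It was also lost with limma-voom, with scaling by totals alone and without either crossed pair (adjusted p up to 0.162). Becn1, the scaffold subunit Beclin 1 (ENSMUSG00000035086, chromosome 11, 101285952 to 101302286), averaged 63.9 ± 2.53 CPM at night and 62.1 ± 6.52 CPM by day (SD, n = 6 each). The log2 difference of 0.05 had a 95% interval from -0.09 to 0.18 (edgeR adjusted p = 0.643). Its highest libraries were ZT10 replicate 1 at 73.3 CPM and ZT14 replicate 2 at 68.9 CPM, and its lowest was ZT02 replicate 1 at 55.7 CPM. Exons of Cntd1 on the opposite strand share 3104 bases with Becn1 (43.9% of its exon length). Cntd1 had 360 counts over all libraries and Becn1 29552. Opposite-strand exons also overlap Bnip3 (504 bases, 22.3% of its exon length, Gm45507) and Sqstm1 (580, 17.3%, Mrnip). They overlap Atg14 (239, 5.5%, Gm49004) and Map1lc3b (58, 0.8%, Zcchc14) as well. Gm45507 and Gm49004 were not in the exon count table, so their counts are not known here. If the counting ignored strand, which no label says either way, reads in the shared bases cannot be assigned to a strand.

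The ATG8 family held the largest difference among the members. Gabarapl1, which encodes an ATG8 protein of the GABARAP branch (ENSMUSG00000030161, chromosome 6, 129533160 to 129542346), was at 202 and 330 CPM at ZT02, 249 and 288 at ZT06, and 272 and 283 at ZT10. In the dark its libraries stood at 165 and 180 CPM (ZT14), 147 and 130 CPM (ZT18), and 145 and 136 CPM (ZT22). All 6 night libraries lay below all 6 day libraries, and the drop was already present at ZT14. The averages were 151 ± 18.7 CPM at night and 271 ± 42.7 CPM by day (SD, n = 6 each), so that night minus day was -0.85 ± 0.11 in log2 (SE; edgeR, adjusted p = 0.00249). This is 1.81-fold higher by day. The call held in all 21 alternatives (adjusted p up to 0.0153), as did that of the 24 h rhythm (main adjusted p = 0.00458, up to 0.0253). The any-time call (adjusted p = 0.0214) was lost without ZT14 replicate 1, either ZT18 library or either ZT22 library (up to 0.0796). Exons of 1700101I11Rik on the opposite strand share 570 bases with Gabarapl1 (28.3% of its exon length). That gene had 62 counts in all and Gabarapl1 98702.

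Map1lc3b, which encodes LC3B, the standard marker protein of autophagosomes (ENSMUSG00000031812, chromosome 8, 121590361 to 121598760), moved the same way by less. It ran from 68.7 through a median of 73.5 to 76.7 CPM at night, and from 79.2 through 83.0 to 93.6 CPM by day. Although the groups did not overlap, the log2 difference of -0.22 ± 0.06 (SE; 95% interval -0.37 to -0.06) did not pass over all genes (edgeR adjusted p = 0.0544). It passed without ZT06 replicate 1 (0.0401) and with DESeq2 (0.0378). Map1lc3a, which encodes LC3A (ENSMUSG00000027602, chromosome 2, 155276297 to 155278073), ran from 22.3 through 28.5 to 33.0 CPM at night and from 24.0 through 28.6 to 38.8 CPM by day. Night and day overlapped, with a log2 difference of -0.06 (95% interval -0.31 to 0.18, edgeR adjusted p = 0.733). In Gabarapl1, Map1lc3b and Map1lc3a both replicate 2 libraries of ZT02 and ZT06 lay above both replicate 1 libraries. The share of all genes with this order was not taken, and a link to the likeness of libraries described above was not tested.

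Ratios within a library, in which library scaling cancels, were then compared between night and day for 4 pairs of related genes. The log2 ratio of Gabarapl1 to Map1lc3b was 1.04 ± 0.13 at night and 1.66 ± 0.18 by day (SD, n = 6 each), with no overlap. The difference of -0.62 had an exact permutation p of 0.00216, two-sided, the smallest that the 924 arrangements can give, and 0.00866 after adjustment over the 4 ratios. For all 4 ratios the arrangements exchange single libraries and count the 2 libraries of a time point as separate. These p-values therefore do not measure the spread between time points. The log2 ratio of Gabarapl1 to Map1lc3a was 2.42 ± 0.32 at night and 3.20 ± 0.22 by day (SD, n = 6 each; exact permutation p = 0.00433, adjusted 0.00866). In these libraries Gabarapl1 thus fell at night by more than either LC3 gene. The log2 ratio of Map1lc3a to Map1lc3b was -1.38 ± 0.24 at night and -1.54 ± 0.24 by day (SD, n = 6 each; exact permutation p = 0.268, adjusted 0.312).

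**Figure D2:**
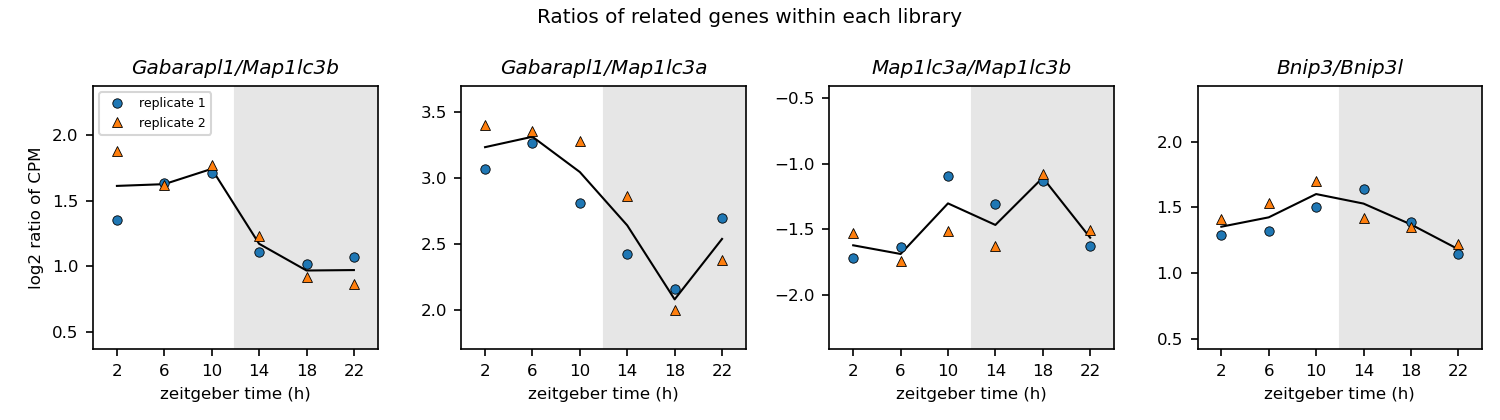
Log2 ratio of CPM of each gene pair (vertical axis, a window of 2 log2 units in each panel) against zeitgeber time in hours, with both libraries of each time point as points, their mean as a line and the dark phase shaded. The ratio of Gabarapl1 to Map1lc3b was 0.87 to 1.23 in the night libraries and 1.35 to 1.87 in the day libraries.

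Among receptors, the mitophagy receptors fell at night. BNIP3 and BNIP3L are related proteins of the outer mitochondrial membrane that bind ATG8 proteins. Bnip3 (ENSMUSG00000078566, chromosome 7, 138890836 to 138909519) was at 177 and 189 CPM at ZT02, 191 and 201 at ZT06, and 223 and 265 at ZT10. In the dark its libraries stood at 179 and 202 CPM (ZT14), 129 and 134 CPM (ZT18), and 140 and 128 CPM (ZT22). ZT10 stood above all other times, and ZT14 lay within the day range, so only the ZT18 and ZT22 libraries were below every day library. The averages were 152 ± 31.1 CPM at night and 208 ± 32.0 CPM by day (SD, n = 6 each), so that night minus day was -0.46 ± 0.07 in log2 (SE; edgeR, adjusted p = 0.0045). The calls of night minus day and of the 24 h rhythm (adjusted p = 0.00446) held in all 21 alternatives, with adjusted p up to 0.0236 and 0.0206. The any-time call (adjusted p = 0.0113) was lost without ZT18 replicate 1 (0.0608) or ZT18 replicate 2 (0.0569).

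Bnip3l, also known as Nix, clears mitochondria from maturing red blood cells (ENSMUSG00000022051, chromosome 14, 66985239 to 67008877). It ran from 49.2 through a median of 56.2 to 75.5 CPM at night, and from 69.4 through 74.4 to 81.6 CPM by day. The night library of 75.5 CPM was ZT14 replicate 2, and the other night libraries lay below every day library. The log2 difference was -0.36 ± 0.08 (SE, edgeR adjusted p = 0.0191), and the 24 h rhythm was called at adjusted p = 0.0237. The night and day call was lost without either ZT18 library or ZT22 replicate 2 (0.0543 to 0.0725). The 24 h call was lost without ZT10 replicate 2 or either ZT18 library (0.052 to 0.0682), and leaving out ZT02 replicate 2 and ZT06 replicate 1 together ended both (0.0724 and 0.0597). Erythroid markers (5 of 7 in the table, 0 or 1 of them at 0 per library) summed to 91.5 to 163 CPM at night and 73.3 to 168 CPM by day; at ZT14 they stood at 162 and 163 CPM. Their part in the level of Bnip3l was not tested. The log2 ratio of Bnip3 to Bnip3l was 1.36 ± 0.17 at night and 1.46 ± 0.15 by day (SD, n = 6 each; exact permutation p = 0.312, adjusted 0.312). A difference between the receptors in their night fall was not detected.

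Sqstm1, which encodes the cargo receptor p62 and is itself degraded by autophagy (ENSMUSG00000015837, chromosome 11, 50199366 to 50210827), was called in no test. It ran from 272 through a median of 315 to 368 CPM at night, and from 274 through 355 to 413 CPM by day. The widest gap between libraries of a time point was at ZT10, at 413 and 274 CPM, and the neighbours in the order of time means all overlapped. The log2 difference was -0.10 (95% interval -0.36 to 0.16, edgeR adjusted p = 0.592), and the 24 h test gave adjusted p = 0.855.

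Tfeb, the transcription factor that activates lysosomal and autophagy genes (ENSMUSG00000023990, chromosome 17, 47737030 to 47792419), was the least abundant member. It ran from 9.27 through a median of 9.72 to 11.1 CPM at night, and from 7.99 through 9.64 to 11.6 CPM by day. Its highest libraries were both of ZT10, at 11.2 and 11.6 CPM, and its lowest those of ZT02, at 7.99 and 8.77 CPM. The log2 difference was 0.04 (95% interval -0.15 to 0.23, edgeR adjusted p = 0.785), and the 24 h test gave adjusted p = 0.25.

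**Figure D3:**
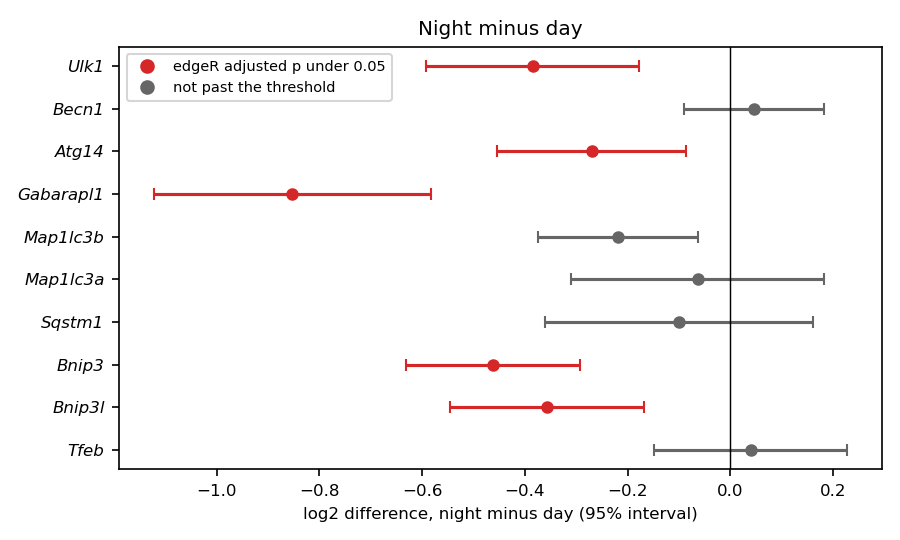
Log2 difference, night minus day, of each gene (horizontal axis) with its 95% interval from the standard error and 6 residual degrees of freedom. The 5 genes in red passed at edgeR adjusted p under 0.05, and the interval of Map1lc3b, -0.37 to -0.06, lies below 0 although its p adjusted over all genes missed the threshold.

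The fitted peaks of the called rhythms lay in the light phase. Gabarapl1 had a peak over trough of 2.26-fold (95% interval 1.69 to 3.03) and peaked at ZT 6.76 ± 0.60 h (SE). Bnip3l had 1.48-fold (1.22 to 1.79) and peaked at ZT 7.27 ± 0.82 h, and Bnip3 had 1.79-fold (1.49 to 2.16) and peaked at ZT 8.60 ± 0.54 h. The differences between these peak times were not tested. The cosine held a fraction of 0.82 of the variance of log2 CPM in Gabarapl1, 0.85 in Bnip3 and 0.71 in Bnip3l. Among the members not called, Map1lc3b (1.25-fold) had its fitted peak at ZT 6.50 h, Atg14 (1.31-fold) at 4.63 h and Ulk1 (1.42-fold) at 4.41 h. Tfeb (1.21-fold) and Map1lc3a (1.22-fold) had theirs at ZT 12.5 h, and Becn1 (1.17-fold) at 13.3 h. For Sqstm1 (1.09-fold) the peak time of 1.55 h had an SE of 5.25 h.

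**Figure D4:**
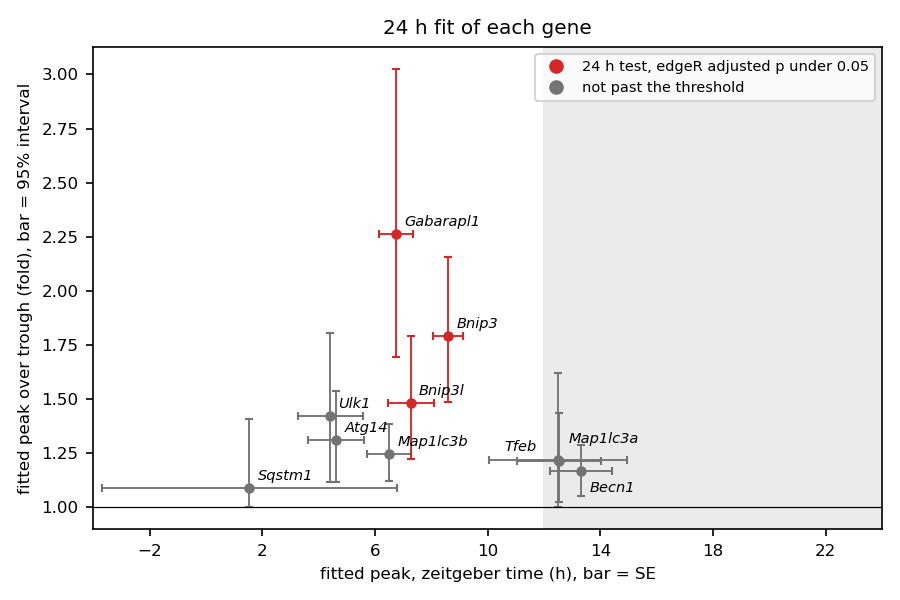
Fitted peak over trough (vertical axis, fold, bars are 95% intervals) against fitted peak in hours of zeitgeber time (horizontal axis, bars are SE), with the dark phase shaded. The 3 genes called in the 24 h test, in red, lie between ZT 6.76 and 8.60 h with ranges of 1.48-fold to 2.26-fold.

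Levels were compared between genes only per kilobase of annotated exon. The order of the means of the most abundant genes on this scale differed between night and day, which was not tested. The order of Sqstm1 and Gabarapl1 given below was reversed in ZT14 replicate 1 and in ZT02 replicate 1. At night Sqstm1 was highest at 95.4 ± 9.62 CPM per kb, above Gabarapl1 at 74.9 ± 9.31 and Bnip3 at 67.0 ± 13.7, which did not differ beyond their spread (SD, n = 6 each). By day Gabarapl1 was highest at 135 ± 21.2 CPM per kb, above Sqstm1 at 102 ± 15.7 and Bnip3 at 91.6 ± 14.1 (SD, n = 6 each), and the levels of Sqstm1 and Bnip3 did not differ beyond their spread. The other genes are given over all 12 libraries (SD, n = 12). Map1lc3a was at 24.5 ± 3.95, Bnip3l at 17.3 ± 2.86, Map1lc3b at 10.5 ± 1.02, Becn1 at 8.91 ± 0.68, Ulk1 at 5.23 ± 0.91, Atg14 at 3.33 ± 0.43 and Tfeb at 1.75 ± 0.19 CPM per kb. Exon length is the union over all annotated transcripts, from 1181 bases for Map1lc3a to 7517 for Map1lc3b, so a gene whose long transcripts are little used is understated.

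Beyond the 10 genes, 103 other genes of 11 lists that cover the pathway, its lysosomal end and its nutrient sensors were tested. At night 15 were lower (14.6%) and 1 was higher (0.971%), against 4.89% and 4.80% of all genes. The 24 h test called 11 (10.7%), against 12.0%. When only genes of at least 5 CPM were tested, 16 of 99 were lower at night, against 8.15% of all genes tested there. The 24 h test then called 14 of the 99, against 20.4%. The median log2 difference of the 103 genes, night minus day, was -0.08, against 0.01 over all genes. With ZT02 replicate 2 or ZT18 replicate 1 left out 9 were lower, with ZT14 replicate 1, or ZT22 replicate 1, left out 8, and with ZT18 replicate 2 left out 6. ZT06 replicate 2 left out gave 10, and ZT06 replicate 1 left out with ZT02 replicate 2 gave 9. The 24 h count also moved when libraries were left out, and so did the 24 h calls among all genes. Calls were fewer among all genes too in most of these fits, with 1.61% to 5.69% lower at night over the fits without 1 library.

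Of the 10 cargo receptor genes, p62 included, 2 were lower at night. For this list and those below, the share of all genes lower at night was 4.89%, or 8.15% when only genes of at least 5 CPM were tested. Calcoco1 averaged 13.8 ± 2.42 CPM at night and 24.8 ± 3.50 CPM by day (SD, n = 6 each), or -0.85 ± 0.07 in log2 (SE; edgeR, adjusted p = 0.000512), and peaked at ZT 4.70 h with a 2.46-fold range. Retreg1, an ER-phagy receptor listed as Fam134b, averaged 44.2 ± 5.31 CPM at night and 71.7 ± 9.18 CPM by day (log2 difference -0.70 ± 0.07, adjusted p = 0.000753). The night and day calls of both held in all 21 alternatives. The 24 h call of Fam134b (adjusted p = 0.0195) was lost without ZT18 replicate 1 (0.0533).

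In phagophore membrane genes, 3 of 10 were lower and 1 higher at night. Wipi1, which reads the lipid made by the PI3-kinase complex, averaged 9.67 CPM at night and 12.5 CPM by day (log2 difference -0.38 ± 0.07, SE; edgeR adjusted p = 0.0113). Its relative Wdr45 averaged 25.1 ± 2.78 CPM at night and 32.3 ± 2.41 CPM by day (adjusted p = 0.0107). The lipid transfer protein gene Atg2a averaged 47.1 ± 5.08 CPM at night and 63.3 ± 6.98 CPM by day (adjusted p = 0.0128), a call lost without ZT18 replicate 2 (0.0513). Tmem41b, whose protein moves lipids between membrane leaflets, averaged 26.9 ± 4.07 CPM at night and 19.7 ± 3.59 CPM by day (adjusted p = 0.0412). It did not survive 10 of the 12 omissions of 1 library, all but those without ZT02 replicate 1 or ZT06 replicate 1 (up to 0.103).

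The ULK initiation complex had 2 of 5 genes lower at night, Ulk1 and Rb1cc1, the FIP200 scaffold, at 70.8 ± 7.54 CPM at night and 91.3 ± 8.18 CPM by day (SD, n = 6 each; edgeR adjusted p = 0.0225). In the class III PI3-kinase complexes 3 of 8 were lower, namely Atg14, the lipid kinase gene Pik3c3 (17.7 ± 2.59 CPM at night and 22.7 ± 2.28 CPM by day, adjusted p = 0.0365) and Uvrag (39.7 ± 2.64 and 47.0 ± 2.59 CPM, adjusted p = 0.0364). The calls of Rb1cc1, Pik3c3 and Uvrag were lost in 5, 8 and 10 of the 12 fits without 1 library (highest adjusted p of any alternative 0.089, 0.107 and 0.154). Of the 5 ATG8 genes only Gabarapl1 was called. Gabarap averaged 130 ± 3.62 CPM at night and 124 ± 4.95 CPM by day (adjusted p = 0.511), and Gabarapl2 33.2 ± 1.64 and 34.4 ± 2.17 CPM (adjusted p = 0.65).

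No conjugation gene (0 of 11) was called by night and day or in the 24 h test, with edgeR, DESeq2 or limma-voom. At an unadjusted p under 0.05 edgeR gave 0 in both tests. No fusion gene (0 of 7) was called with edgeR, where 2 were lower at night at an unadjusted p under 0.05. DESeq2 and limma-voom called 0 lower, and DESeq2 called 1 in the 24 h test. Over all genes edgeR called 9.70% by night and day and 12.0% in the 24 h test. Lists of 11 and 7 genes are too short to set a count of 0 apart from these shares. In mitophagy 2 of 10 were lower, both members. Pink1, the kinase that marks damaged mitochondria, averaged 168 ± 12.6 CPM at night and 196 ± 16.7 CPM by day (SD, n = 6 each; edgeR adjusted p = 0.0716).

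At the lysosomal end 2 of 22 genes (9.09%) were lower at night, against 4.89% of all genes. That share of all genes was 8.15% when only genes of at least 5 CPM were tested, close to that of the list. Npc1, a cholesterol exporter of the lysosome, averaged 117 ± 5.53 CPM at night and 170 ± 30.8 CPM by day (SD, n = 6 each; edgeR adjusted p = 0.0111), a call that held in all 21 alternatives. Ctsl, the protease cathepsin L, had a log2 difference of -0.23 ± 0.06 (SE, adjusted p = 0.0474), a call lost in 12 of 12 fits without 1 library (adjusted p up to 0.148).

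Among transcriptional regulators 2 of 10 were lower at night. Ppara averaged 137 ± 13.4 CPM at night and 197 ± 43.3 CPM by day (SD, n = 6 each; edgeR adjusted p = 0.0355), and Foxo1 had a log2 difference of -0.35 ± 0.09 (SE, adjusted p = 0.0391). These calls were lost in 10 and 9 of the 12 fits without 1 library (highest adjusted p of any alternative 0.105 and 0.15). Cebpb averaged 81.0 ± 17.4 CPM at night and 99.9 ± 19.1 CPM by day (adjusted p = 0.0943), and Tfe3, a relative of Tfeb, 20.6 ± 1.70 and 20.4 ± 2.05 CPM (adjusted p = 0.954).

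Among nutrient kinases and their regulators 3 of 15 were lower. Tsc1, a brake on mTORC1, averaged 30.5 ± 4.58 CPM at night and 39.2 ± 2.91 CPM by day (SD, n = 6 each; edgeR adjusted p = 0.0109), a call lost only without ZT02 replicate 2 and ZT06 replicate 1 together (0.0512). Of the sestrins, which restrain mTORC1 when amino acids are short, Sesn3 averaged 10.4 ± 0.94 CPM at night and 13.4 ± 2.20 CPM by day (adjusted p = 0.0147), and Sesn2 7.10 ± 1.76 and 11.9 ± 2.79 CPM (adjusted p = 0.0177). Sesn3 was not called when ZT18 replicate 2 (0.0543), ZT22 replicate 1 (0.0506) or ZT02 replicate 1 with ZT06 replicate 2 (0.0576) were left out. Sesn2 was not called in 3 of the 12 omissions, those of ZT14 replicate 1, ZT18 replicate 2 and ZT22 replicate 1 (0.0503 to 0.0615). Sesn1 was called in the 24 h test alone, with a 1.62-fold range and a peak at ZT 2.13 h (adjusted p = 0.0143), a call lost when ZT02 replicate 1 and ZT06 replicate 2 were both left out (0.0877).

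**Figure D5:**
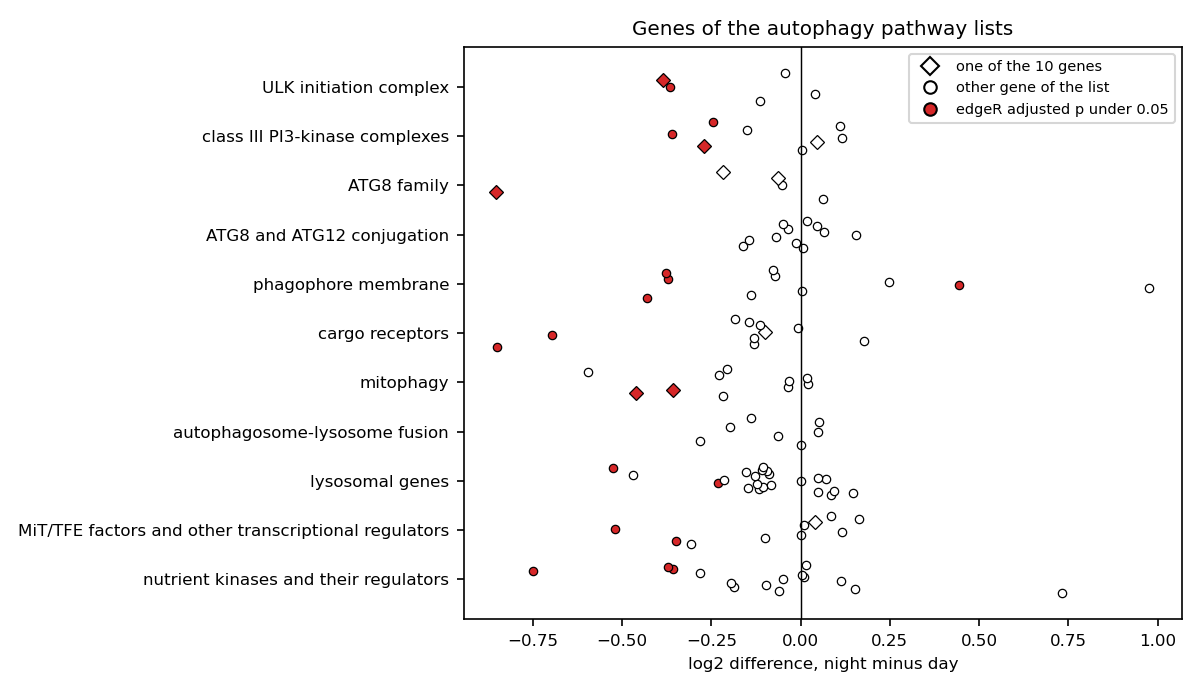
Log2 difference, night minus day, of every tested gene of the 11 pathway lists (1 row per list); diamonds are the 10 genes described here, circles the other genes, and red marks edgeR adjusted p under 0.05. The called genes lie below 0 except Tmem41b at 0.44.

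Genes with the pattern most like that of each rhythmic member were ranked by Pearson r of log2 CPM over the 12 libraries, among genes of at least 5 CPM. For Gabarapl1 they were Ypel3 (r = 0.98), Dcaf6 (0.96) and Abca6 (0.96). For Bnip3 they were Kdsr (0.96), Sh3glb1 (0.96) and Mib1 (0.95), and for Bnip3l Dnajb6 (0.97), Ubr1 (0.96) and Atrx (0.95). Among the members themselves, Gabarapl1 and Map1lc3b (r = 0.92) and Bnip3 and Bnip3l (r = 0.89) were most alike, while Atg14 and Tfeb (r = -0.47) were least alike. The points share their libraries and times of day, so these values describe the profiles and carry no p.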

How the data were processed

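Stranded, rRNA-depleted total RNA libraries were sequenced as paired ends, according to the labels' protocols. The deposited values are exon counts of each gene, not normalized by the authors. The submitters' processing notes name STAR 2.4.0i and mm10. Counting tool, strand handling and gene models: not given in the sources used here. Library totals were 34715506 to 46074052 counts; precision statements cover counting error and the spread between libraries only. Time point and replicate number came from the labels.

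The main tests used edgeR 4.0.16 under R 4.3.3 (normalization by TMM, filterByExpr with a minimum count of 10 and total of 15, glmQLFit, glmQLFTest). A 6-group fit gave any time difference and night minus day, and cosine and sine terms gave the 24 h test. P-values were Benjamini-Hochberg adjusted over all 17142 tested genes and called under 0.05. Peak times, ranges and their intervals are least-squares fits to log2 CPM (prior count 2), and ratios use the same values. Gene positions and exon lengths are from GENCODE M21, which matched 22054 of 22618 identifiers. Alternatives were DESeq2 1.42.0, limma-voom (limma 3.58.1), RLE factors, library totals, other filters, a replicate block and leaving out libraries. Scripts were tested on data simulated with the gene levels and spread of these libraries. Of 67 genes changed 1.5-fold, the 24 h test recovered 14.9%, any time difference 0% and night minus day 52.2%. At 2-fold these shares were 56.7%, 34.3% and 80.6%. False calls were 11 of 115, 5 of 83 and 4 of 157. A gene not called can therefore still change by such amounts. The named genes are the 10 members, up to 4 called genes of each pathway list by smallest adjusted p, and the 3 genes most like each member called in the 24 h test, without genes that have just a clone name or model number. Gabarap, Gabarapl2, Pink1, Cebpb and Tfe3 were named outside this rule, after their values were seen. The members and lists were chosen with earlier results of these data known. The 2 libraries of each time point differed beyond sampling noise (16.8 to 100.5 chi-square units per degree of freedom), and each was counted separately. Such a difference does not show that they came from separate animals.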

Additional observations from a re-analysis of the deposited data

Results flagged for a closer look

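Among the 20 groups formed by the 10 genes at night and by day, 1 held a library far from the others, and chance flags about 1 in 20 such groups. Becn1 was at 68.9 CPM in ZT14 replicate 2, and at 62.1 to 64.0 CPM in the other 5 night libraries. Pancreatic acinar markers were also highest in that library, at 33.6 CPM, and their part in the level of Becn1 was not tested.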

How the results depend on the processing

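The night and day calls of Gabarapl1 and Bnip3, and their 24 h calls, held in all 21 alternatives. With DESeq2 the count of the 10 genes called in the 24 h test was 6 (3 with edgeR) and that for any time difference 4 (2 with edgeR). Over all genes DESeq2 called 3378 (19.7%) in the 24 h test and 2524 for any time difference, against 2051 and 826 with edgeR. Over the fits without 1 library the counts were 2 to 4 for the 24 h test, 0 to 3 for any time difference and 2 to 5 for night minus day. Without ZT02 replicate 2 and ZT06 replicate 1 together the night and day count was 2. For the 103 other pathway genes, the fits without 1 library gave 6 to 17 lower at night, 0 to 2 higher and 7 to 19 in the 24 h test; for the 0, edgeR found 2 to 7 higher at an unadjusted p under 0.05, and DESeq2 and limma-voom on all libraries called 1. DESeq2 gave 22 of the 103 in the 24 h test, where it called 19.7% of all genes, no filter on low counts gave 0 higher, and leaving out ZT02 replicate 2 and ZT06 replicate 1 together gave 9 lower. Leaving out ZT02 replicate 1 and ZT06 replicate 2 together gave fewer 24 h calls, among the 103 and among all genes alike. The settings for these 103 genes were chosen after seeing the data. Among differences not called, that of Map1lc3a turned to 0.00272 without ZT02 replicate 2 and 0.00987 without ZT10 replicate 1 (range -0.13 to 0.00987), that of Sqstm1 to 0.00803 without ZT10 replicate 1 (range -0.19 to 0.00803), and that of Tfeb to -0.000998 without ZT22 replicate 2 (range -0.000998 to 0.0748). The log2 ratio differences between night and day ran from -0.68 to -0.58 for Gabarapl1 to Map1lc3b, -0.87 to -0.70 for Gabarapl1 to Map1lc3a, 0.10 to 0.25 for Map1lc3a to Map1lc3b and -0.15 to -0.05 for Bnip3 to Bnip3l over the fits without 1 library. Where a time point was left with 1 library, that library is assumed to vary like the others. The cause of these changes was not tested. Scaling by library totals moved the median log2 difference of all genes by 0.03.

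The replicate numbers did not pair the libraries across all time points. Differences between replicates 1 and 2 correlated between time points at r = -0.18 to 0.27. Of 15 pairs of time points, 2 were over 0.1 and 4 under -0.1. The highest was that of ZT02 and ZT06 (0.27), whose libraries were alike by replicate number as described above. With the replicate block the 10 genes had 3 calls in the 24 h test, 2 for any time difference and 4 for night minus day, where Atg14 was no longer called (adjusted p = 0.0613). The ratio of Gabarapl1 to Map1lc3b gave an exact permutation p of 0.005 within replicate numbers, the smallest that this test can give.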

Other observations

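Outside the naming rule, and chosen after its values were seen, Atg2a had the profile most like that of Map1lc3b (r = 0.98 over 12 libraries), among genes of at least 5 CPM. Becn1 and Tfeb, both with fitted peaks near the start of darkness and neither called, correlated at r = 0.69. The least abundant of the 10, Tfeb, rested on 308 to 498 counts per library.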
